A study of Mus musculus with 8 samples.

Results

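Hedgehog signalling was examined in the mouse atrioventricular canal, the segment of the embryonic heart in which the valve-forming endocardial cushions arise, through 9 genes: the receptor Ptch1, the transducer Smo, the transcription factors Gli1, Gli2 and Gli3, the antagonists Hhip and Sufu, and the coreceptors Boc and Gas1. Every probe set annotated with exactly 1 of these symbols was taken, which gave 25 probe sets of the 45101 on the array and 9 genes of the 18194 named by such probe sets. The mutant pools had the genotype Gata4flox/flox; T2Cre+, in which Cre recombinase under the Tie2 (Tek) promoter removes Gata4 from endothelial cells and from the mesenchyme they give rise to in the cushions. The control pools were Gata4flox/flox. Both groups therefore carried the floxed alleles, on a mixed C57BL6 and 129 background, and no Cre is listed for the controls. Each of the 4 mutant and 4 control samples was RNA from 10 pooled canals, and the labels state no embryonic age. Canal muscle and epicardium lie in the same tissue but are not targeted by this Cre, so RNA of deleted and undeleted cells was measured together.

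In the Hedgehog pathway a secreted ligand binds Patched on the receiving cell and so frees Smoothened from its inhibition. Smoothened then acts through the primary cilium on the GLI proteins, which are held back by Sufu. Gli1 acts as an activator, Gli2 mainly as an activator, and Gli3 mainly as a repressor once it has been cleaved. Ptch1, Gli1 and Hhip are themselves common target genes and are widely used as readouts of signalling. In the mouse heart, Hedgehog signalling is known mainly from mesenchyme and progenitors at the venous pole that contribute to atrial and atrioventricular septation.

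The control arrays were uneven, which bears on every dim probe set. The background threshold of an array was the signal that 90% of its 27 probe sets for bacterial genes, used as spike-in controls, did not exceed. It was 21.4 to 65.4 on the mutant arrays, against 316 on control 2, 270 on control 3, 97.5 on control 1 and 51.1 on control 4. Array weights, which give noisier arrays less influence, were 0.302 and 0.35 for controls 2 and 3 and 0.867 to 2.8 for the other 6 arrays. Defining cushion mesenchyme, endothelial and muscle markers were present: 12 of 12, 11 of 12 and 12 of 12 markers of these lists were bright enough to be tested. The brighter Gata4 probe set had log2 values of 10.93 to 11.28 in mutant pools and 11.07 to 11.42 in control pools (adjusted p = 0.585), and the dimmer one had 7.68 to 7.94 in mutant pools and 5.05 to 8.13 in control pools (change 0.98, adjusted p = 0.388). Neither checks the deletion, because undeleted canal muscle also expresses Gata4.

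Of the 9 genes, 7 had a probe set in the tested part of the table, and Gli1 and Hhip did not. The test covered 27022 probe sets after the dimmest 40% were left out, and 13 of the 25 Hedgehog probe sets were among them. The same 13 were above background on at least 2 arrays of each group, and 9 of them on all 8 arrays. The 12 untested probe sets are described by detection only.

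**Figure D1:**
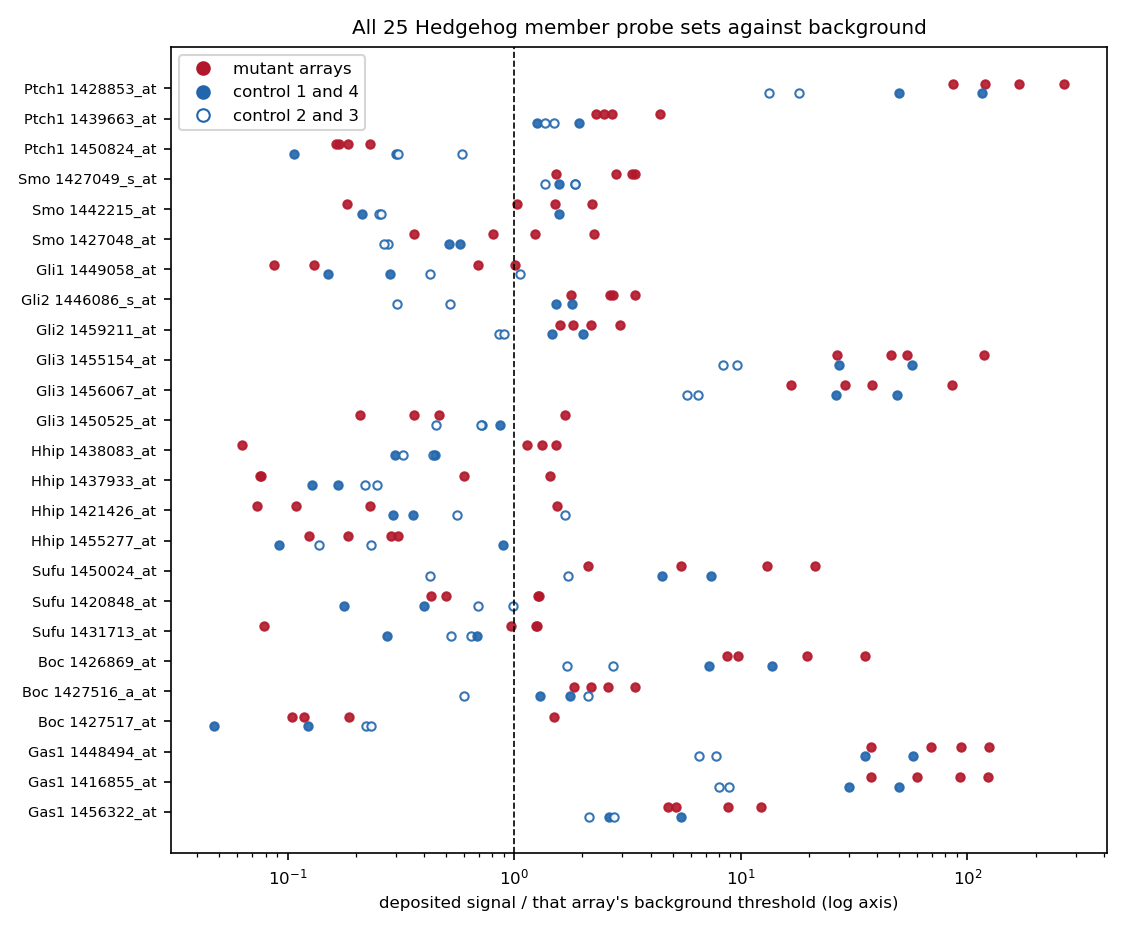
Signal of all 25 Hedgehog probe sets as a multiple of the background threshold of the same array, on a log axis; each point is 1 array, red for the 4 mutant arrays, filled blue for controls 1 and 4, hollow blue for controls 2 and 3, with the dashed line at the threshold. The brightest Ptch1, Gli3 and Gas1 probe sets lie far to the right of the line on all 8 arrays, while the Gli1 probe set and all 4 Hhip probe sets lie mostly to its left; hollow points lie further left than filled ones for bright probe sets because their threshold is higher.

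No Hedgehog probe set passed the threshold of an adjusted p of 0.05. In limma's fit with Benjamini-Hochberg adjustment over all tested probe sets, 0 of the 13 were called, and 12 of 27022, or 0.0444%, were called over the whole table (0.0259% higher and 0.0185% lower). Of the 13, 2 had an unadjusted p under 0.05 in the lower direction, where 5.33% of all probe sets did, and 0 in the higher direction, where 7.31% did. Both were probe sets of Gli3. Changes are mutant minus control on the scale of log2(signal + 16) after quantile normalization, on which the change of a dim gene is understated. The median change was -0.06 over the 13 probe sets and 0.03 over all tested probe sets, and 8 of the 13 changes were negative.

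**Figure D2:**
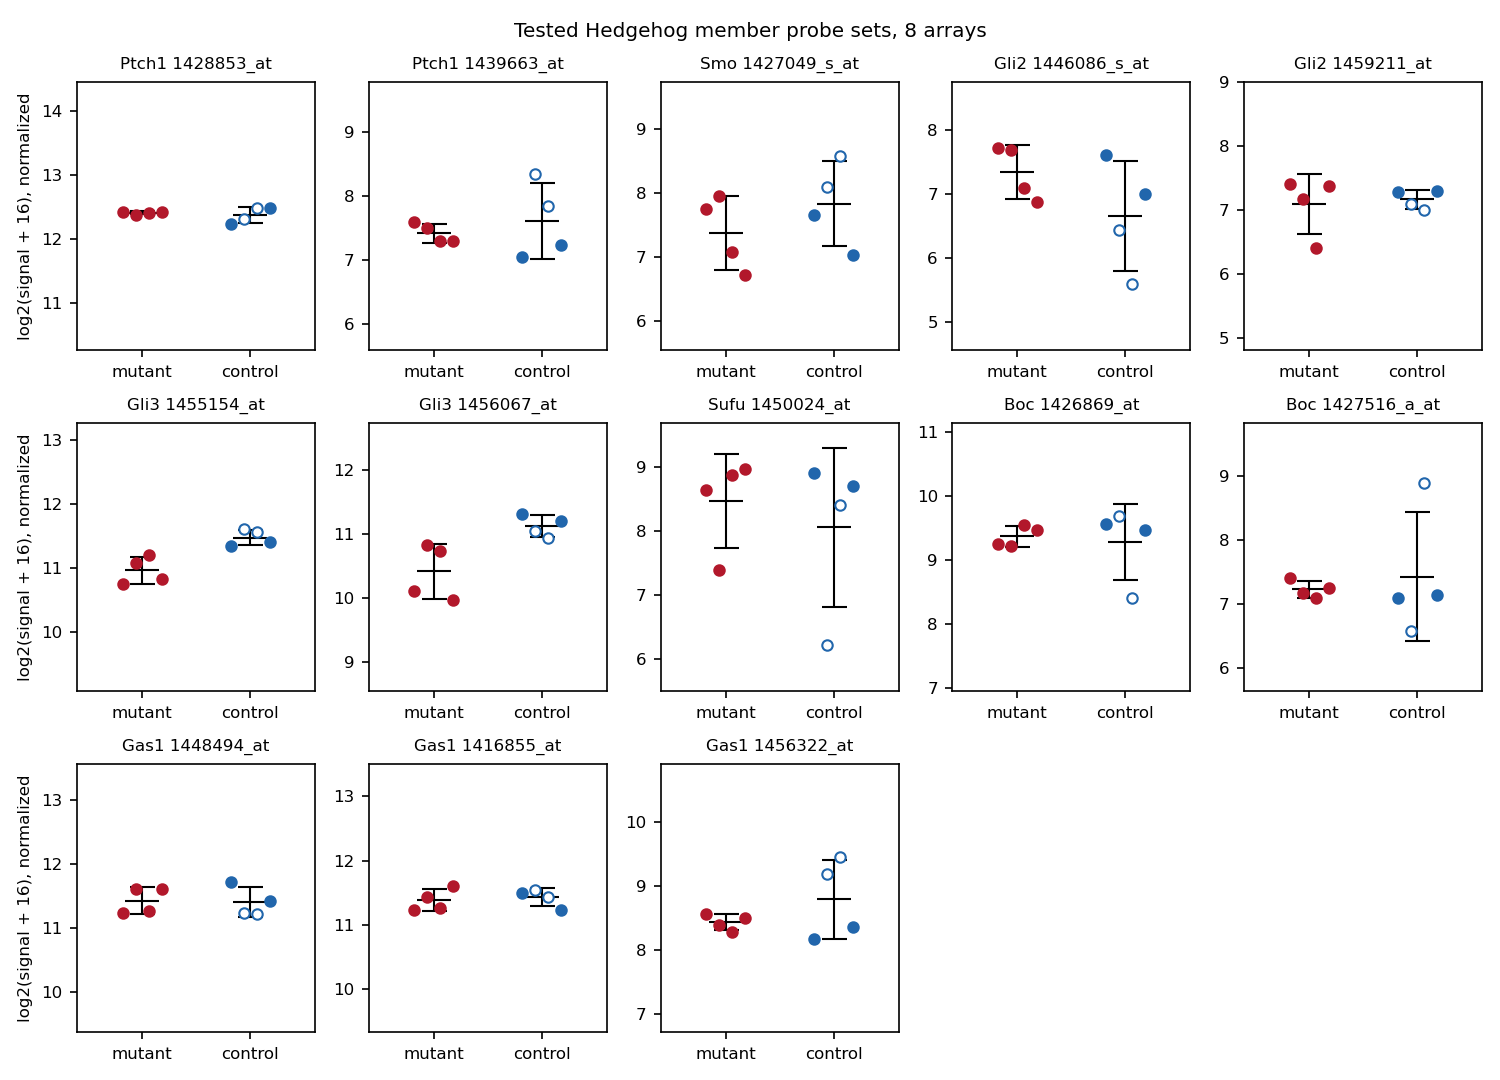
Normalized log2(signal + 16) of the 13 tested Hedgehog probe sets; each point is 1 array, red for mutants on the left and blue for controls on the right (hollow for controls 2 and 3), with group mean and SD as bars, and each panel spans the same height. Of the 13 panels, the 2 of Gli3 show groups that do not overlap; in the Sufu, Boc and Smo panels the controls spread widely.

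Gli3, the main repressor among the GLI factors, was lower in the mutant pools on both of its bright probe sets without passing the threshold. Probe set 1456067_at had log2 values of 10.11, 10.83, 10.73 and 9.97 in mutants 1 to 4, against 11.31, 11.04, 10.93 and 11.20 in controls 1 to 4. Mutants 1 and 4 were the lowest, while mutants 2 and 3 came close to control 3. The change was -0.82 (SE 0.22, 95% interval -1.31 to -0.33, unadjusted p = 0.00312, limma adjusted p = 0.244), a fold of 0.567.

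Probe set 1455154_at had log2 values of 10.75, 11.08, 11.20 and 10.83 in mutants 1 to 4, against 11.34, 11.60, 11.56 and 11.41 in controls 1 to 4. Mutants 1 and 4 were again the lowest. Its change was -0.43 (SE 0.12, 95% interval -0.69 to -0.17, unadjusted p = 0.0028, limma adjusted p = 0.24), a fold of 0.742. On both probe sets all 4 mutant arrays lay below all 4 control arrays, as they did for 3.19% of all tested probe sets. Both read the same gene in the same 8 pools, so they are not independent observations.

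Before normalization the separation held for 1 of the 2 probe sets. The deposited signals of 1455154_at were 1732, 2244, 2534 and 1875 in mutants 1 to 4, against 2636, 2629, 2605 and 2904 in controls 1 to 4, with no overlap. Those of 1456067_at were 1095, 1845, 1831 and 998 in the mutants, against 2557, 1828, 1748 and 2490 in the controls, so that mutants 2 and 3 overlapped controls 2 and 3. The third Gli3 probe set, 1450525_at, was above background on 1 mutant and 0 control arrays and was not tested. The adjusted p of Gli3 crossed the threshold with some arrays left out. Without mutant 3 it was 0.0232 for 1456067_at (change -1.01) and 0.0435 for 1455154_at (-0.56). Without control 1 it was 0.0493 for 1455154_at (-0.56) and 0.232 for 1456067_at (-0.63). More probe sets passed over the whole table in these fits too. Without mutant 3, 15 passed higher and 39 lower, and without control 1, 1417 passed higher and 263 lower. With all arrays, 7 passed higher and 5 lower. Without the noisy controls 2 and 3, in a fit without array weights, the Gli3 changes were -0.88 and -0.42. They did not pass (limma adjusted p = 0.493 and 0.549).

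The Gli3 values moved with markers of cushion mesenchyme, one of the cell types that the mutation targets. Of 12 such markers, 10 had negative changes (9 on the authors' scaling and 6 relative to all probe sets with median-centred arrays), 7 had an unadjusted p under 0.05 in the lower direction, and 0 passed. Mutant values lay wholly below control values for 5 of the 12 (Foxc2, Pdgfra, Sox9, Twist1 and Vcan), where 3.19% of all tested probe sets did. They lay wholly above for 1, the collagen gene Col2a1, named after its value was seen (change 0.39, limma adjusted p = 0.363), where 4.44% of all did. The summed normalized signal of the 12 markers was 44540 to 51490 in mutant pools and 56000 to 58520 in control pools, without overlap. Mutants 1 and 4 had the lowest sums as they had the lowest Gli3. The brightest markers weigh most in this sum. With each marker weighted equally, the means of the centred log2 values were -0.374 to 0.089 in mutant pools and 0.012 to 0.313 in control pools, which overlapped. This sum therefore does not describe the mesenchyme markers as a whole. Among the markers, the transcription factor Sox9 changed by -0.54 (limma adjusted p = 0.0585), the forkhead factor Foxc2 by -0.61 (adjusted p = 0.0639) and the growth factor receptor Pdgfra by -0.73 (adjusted p = 0.0654, and 0.0459 on the authors' scaling). Endothelial cells, the other targeted type, had markers on both sides: 7 of 11 tested changes were positive and 4 negative, against 5 positive and 6 negative relative to all probe sets with median-centred arrays. Their summed normalized signal, in which the bright Tek weighs most, was 9386 to 10370 in mutant pools and 11710 to 12150 in control pools, without overlap. Weighted equally as above, the means were -0.094 to 0.223 in mutant pools and -0.198 to 0.057 in control pools, which overlapped. The sum therefore does not describe the endothelial markers as a whole. Tek, the endothelial receptor whose promoter drives this Cre, fell by 0.715 on the log2 scale (limma adjusted p = 0.000172), Npr3 changed by -0.56 (adjusted p = 0.25) and Tie1 by 1.26 (adjusted p = 0.25). These 3 had the smallest p of the list, and Tie1 was above background on 2 of 4 controls. Of the 11 tested, 3 lay wholly higher (Kdr, Sox17 and Tie1) and 2 wholly lower (Tek and Npr3), where 4.44% and 3.19% of all did. The part of these markers in the Gli3 values was not tested. In pooled tissue, fewer cells of a type and less RNA per cell cannot be told apart.

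Pdgfra had log2 values of 10.71, 10.93, 11.23 and 10.81 in mutants 1 to 4, against 11.63, 11.61, 11.99 and 11.71 in controls 1 to 4. As for Gli3 probe set 1455154_at, mutants 2 and 3 were higher than mutants 1 and 4. Sox9 had log2 values of 11.97, 12.16, 12.25 and 11.98 in mutants 1 to 4, against 12.76, 12.74, 12.70 and 12.40 in controls 1 to 4, with the same order of the pairs among the mutants. Of the mesenchyme markers, Tbx20 and Vcan did not have this order, and the others did. It was also found where the change was positive, in Prrx1 (0.28) and Col2a1 (0.39), so it was not particular to the markers that fell. Muscle and epicardial markers lay on the opposite side, with positive changes for 12 of 12 muscle and 8 of 8 tested epicardial markers. The median change was 0.13 for muscle and 0.60 for epicardium, against 0.03 over all tested probe sets, and 0 passed in either list. Mutant values lay wholly above control values for 3 of the 12 and 1 of the 8, where 4.44% of all did. These 2 lists were not examined under the other scalings. The 3 prime to 5 prime log2 ratio of Actb, a measure of RNA integrity, was 1.31 to 1.51 in mutant pools and 1.14 to 1.40 in control pools, and with the mean of this ratio and that of Gapdh as a covariate the Gli3 changes were -0.85 and -0.36.

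**Figure D3:**
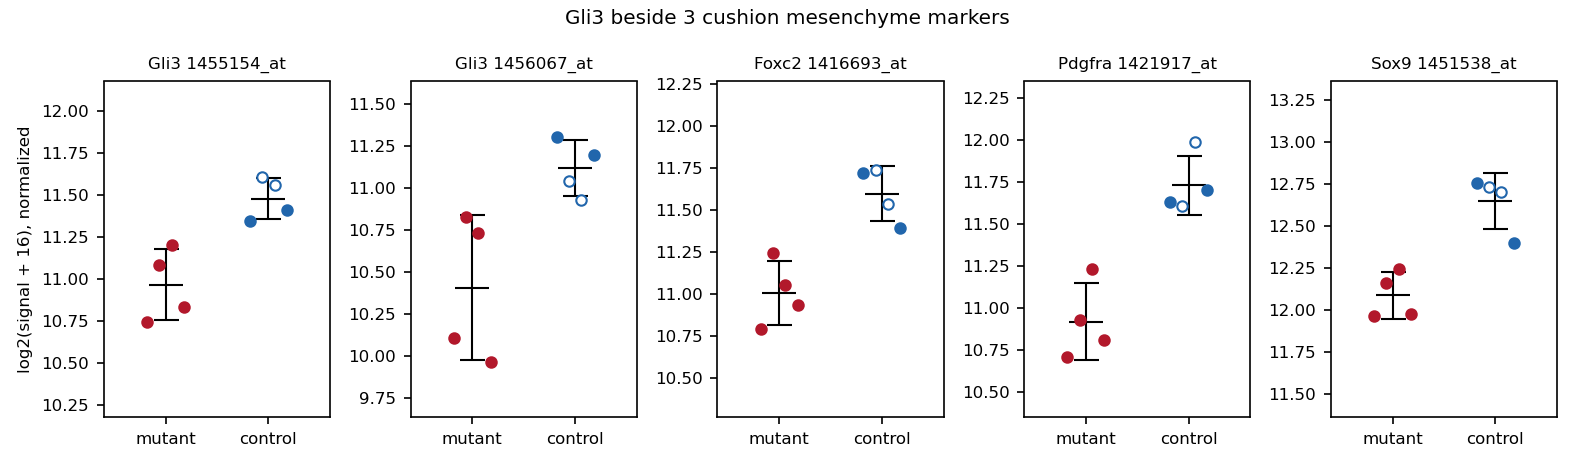
Normalized log2(signal + 16) of both bright Gli3 probe sets and of the cushion mesenchyme markers Foxc2, Pdgfra and Sox9; points are arrays, red for mutants on the left and blue for controls on the right (hollow for controls 2 and 3), with group mean and SD, and each panel spans the same height. In all 5 panels the 4 mutant arrays lie below the 4 control arrays, and mutants 1 and 4, the first and last points of the mutant group, are its lowest.

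Gli2, the main activator among the GLI factors, showed no difference beyond the spread between arrays. Probe set 1446086_s_at had log2 values of 7.71, 7.68, 7.09 and 6.88 in mutants 1 to 4, against 7.61, 6.43, 5.60 and 7.0 in controls 1 to 4. Probe sets of its type can bind transcripts of more than 1 gene. The low values were those of controls 2 and 3, on which it was not above background, and the groups overlapped. Its change was 0.14 (SE 0.42, 95% interval -0.75 to 1.03, adjusted p = 0.914). The other probe set, 1459211_at, averaged 7.09 ± 0.47 in mutants and 7.17 ± 0.15 in controls (SD, n = 4 each), with a change of -0.24 (95% interval -1.06 to 0.58, limma adjusted p = 0.824). It too was not above background on controls 2 and 3. Whether Gli2 and Gli3 differed in response was not tested.

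The promoters of Gli3 and Gli2 are shown because these are the GLI genes that could be tested. Each run covers 250 bases before to 50 after the start of the gene in RefSeq, build GRCm38.p6, 5′ to 3′ on the strand of the gene, at chr13:15463473-15463772 on the plus strand for Gli3 and chr1:119053570-119053869 on the minus strand for Gli2. Capitals mark CCACCC, the core of the GLI binding consensus, or its reverse complement.
Gli3: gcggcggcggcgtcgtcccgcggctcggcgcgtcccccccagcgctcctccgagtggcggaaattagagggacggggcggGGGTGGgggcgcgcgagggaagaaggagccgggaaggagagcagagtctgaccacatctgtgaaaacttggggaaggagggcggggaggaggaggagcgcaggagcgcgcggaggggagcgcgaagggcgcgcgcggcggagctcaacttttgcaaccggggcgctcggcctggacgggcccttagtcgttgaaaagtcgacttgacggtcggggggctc
Gli2: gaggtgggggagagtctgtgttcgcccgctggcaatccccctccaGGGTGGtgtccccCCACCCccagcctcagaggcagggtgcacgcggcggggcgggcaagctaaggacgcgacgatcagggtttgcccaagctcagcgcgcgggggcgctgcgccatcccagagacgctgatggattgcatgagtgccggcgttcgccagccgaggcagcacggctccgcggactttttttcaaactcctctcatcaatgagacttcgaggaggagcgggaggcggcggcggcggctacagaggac
The core was searched on both strands and stood in 4 of the 7 promoters found in the RefSeq table for the 9 genes (Gli2, Gli3, Hhip and Smo), and in 31.5% of all 32851 promoters of the same length. The full consensus GACCACCCA, which contains the core, stood in 0 of the 7 and in 0.253% of all. Any of the GATA motifs AGATAA, or TGATAA, or AGATAG, or TGATAG, searched on both strands, stood in 0 of the 7 and in 29.8% of all. Such matches describe the letters of these windows only. The promoters of Gli1 and Boc are named only.

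Gli1, the activator that is itself induced by the pathway, was not measured above background on most arrays. The deposited signals of its only probe set were 8.53, 49.4, 1.86 and 24.0 in mutants 1 to 4, against 14.7, 134, 287 and 14.5 in controls 1 to 4. It exceeded the threshold on 1 mutant and 1 control array, mutant 2 and control 3. The 2 highest signals were on controls 2 and 3, the arrays with raised background. No fold is given, since only a bound is available on the other arrays.

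Hhip, a membrane protein that binds and sequesters Hedgehog ligands, was likewise mostly at background. Of its 4 probe sets, 1 was above background on 3 mutant arrays, 2 on 1 mutant array each, and 1 on none; a single reading, control 3 on 1421426_at, exceeded the threshold among the controls. The probe set above background most often, 1438083_at, had deposited signals of 99.99, 64.8, 24.4 and 2.18 in mutants 1 to 4, against 29.1, 102, 119 and 22.8 in controls 1 to 4. It was above background on mutants 1, 2 and 3 and on 0 controls. The higher signals of controls 2 and 3 lay below the raised thresholds of those arrays, and the groups overlapped.

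Ptch1, the ligand receptor and the remaining pathway readout, was bright and did not differ beyond the spread between arrays after quantile normalization. Probe set 1428853_at had log2 values of 12.42, 12.37, 12.40 and 12.42 in mutants 1 to 4, against 12.23, 12.30, 12.48 and 12.47 in controls 1 to 4. The mutant values lay inside the range of the control values. The change was 0.07 (SE 0.07, 95% interval -0.08 to 0.21, limma adjusted p = 0.697), and it was 0.20 on the authors' scaling (adjusted p = 0.217). Relative to all probe sets with median-centred arrays it was 0.60. The dimmer probe set 1439663_at averaged 7.43 ± 0.15 in mutants and 7.62 ± 0.59 in controls (SD, n = 4 each), with a change of 0.04 (limma adjusted p = 0.97). Its 2 highest values were those of controls 2 and 3. The third probe set, 1450824_at, was above background on 0 arrays.

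Among the 12069 named genes tested, the 3 other genes with the highest Pearson correlation to the bright Ptch1 probe set across the 8 arrays were Rimklb (0.972), Ripor2 (0.961) and Kpnb1 (0.955). Spearman's rho was 0.857, 0.929 and 0.905. These are the highest of many values over 8 arrays that share processing and differ little in Ptch1, and they are given as a description.

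Smo, the membrane protein that Ptch1 holds in check, had 1 tested probe set, 1427049_s_at, of a type that can bind transcripts of more than 1 gene. Its log2 values were 7.75, 7.96, 7.09 and 6.72 in mutants 1 to 4, against 7.66, 8.10, 8.58 and 7.03 in controls 1 to 4. Controls 2 and 3 were the highest and the groups overlapped. The change was -0.44 (SE 0.36, 95% interval -1.21 to 0.32, limma adjusted p = 0.623), and 0.05 without controls 2 and 3 in the fit without array weights. It was larger in size without control 1 (-0.95), without control 4 (-0.97) and on the authors' scaling (-1.04, adjusted p = 0.194), so that its size depended on the controls and the scaling. The other 2 Smo probe sets were above background on 2 or 3 mutant and on 0 or 1 control arrays.

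Sufu, which binds GLI proteins and holds them in the cytoplasm, was tested on 1450024_at. It had log2 values of 8.64, 7.39, 8.88 and 8.96 in mutants 1 to 4, against 8.91, 6.23, 8.41 and 8.70 in controls 1 to 4. A single low array stood in each group, mutant 2 and control 2, and control 2 was not above background. The change was 0.19 (SE 0.39, limma adjusted p = 0.868), and -0.38 without controls 2 and 3 in the fit without weights. The direction therefore depended on which controls were used. The other 2 Sufu probe sets were above background on 2 mutant and 0 control arrays each.

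The coreceptors Boc and Gas1, which present ligand to Ptch1, had probe sets well above background. Gas1 had log2 values of 11.25, 11.61, 11.27 and 11.61 on 1448494_at in mutants 1 to 4, against 11.72, 11.24, 11.23 and 11.44 in controls 1 to 4. On 1416855_at they were 11.23, 11.43, 11.26 and 11.60 in the mutants, against 11.49, 11.54, 11.44 and 11.23 in the controls. The groups overlapped on both. The changes were -0.10 (SE 0.13, 95% interval -0.37 to 0.16, limma adjusted p = 0.752) and -0.03 (SE 0.11, 95% interval -0.26 to 0.21, adjusted p = 0.945). The dimmer Gas1 probe set 1456322_at changed by -0.08 (adjusted p = 0.916), with its highest values on controls 2 and 3.

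Boc had log2 values of 9.25, 9.21, 9.54 and 9.47 on its brightest probe set, 1426869_at, in mutants 1 to 4, against 9.56, 9.69, 8.40 and 9.46 in controls 1 to 4. Control 3 was the lowest of the 8. The change was 0.02 (SE 0.19, 95% interval -0.39 to 0.43, limma adjusted p = 0.974). On 1427516_a_at control 3 was instead the highest of the 8 at 8.89, and the change was -0.06 (SE 0.35, adjusted p = 0.958). Control 3 thus stood at opposite ends of 2 probe sets of the same gene.

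How the probe sets varied together across the 8 arrays was described by Pearson's r, without a test. The 2 bright Gli3 probe sets had r = 0.853. The dim probe sets of Ptch1 and Gas1 that were high on controls 2 and 3 had r = 0.85 with each other, and the 2 tested Boc probe sets had r = -0.967. Among the 78 pairs of tested probe sets, probe sets of 1 gene therefore followed each other in some cases and ran against each other in others.

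Beyond the 9 genes, 71 further entries of pathway and cilium genes were examined, of which 54 had a tested probe set. With each gene read by its brightest probe set, 0 rose and 0 fell at the limma threshold, 3 had an unadjusted p under 0.05 in the higher and 6 in the lower direction, where 7.31% and 5.33% of all tested probe sets did, and the median change was 0.001. Of the ligands, Sonic hedgehog (Shh) was above background on 1 mutant and 0 control arrays on 1 probe set, and on 0 mutant and 1 control arrays on the other. Indian hedgehog (Ihh) was above background on 2 mutant and 0 control arrays. Desert hedgehog (Dhh) was above background on all 8 arrays on 1434959_at, with log2 values of 8.11, 8.76, 8.80 and 8.52 in mutants 1 to 4, against 9.31, 7.94, 9.01 and 8.74 in controls 1 to 4. The groups overlapped, and the change was -0.37 (SE 0.25, limma adjusted p = 0.541). Dhh is known from endothelium and Schwann cells, among other sites.

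Of the 5 tested genes for ligands and their release, 4 had positive changes. The acyltransferase Hhat, which attaches palmitate to Hedgehog ligands, changed by 1.24 (SE 0.56, adjusted p = 0.382), but it was above background on 3 mutant and 1 control arrays. Scube2, which helps release the lipid-bearing ligand, changed by 0.47 (adjusted p = 0.561). Of the 6 tested genes of reception, 4 had negative changes. The coreceptor Cdon, a relative of Boc, averaged 8.48 ± 0.10 in mutants and 8.71 ± 0.60 in controls (SD, n = 4 each) and changed by -0.46 (SE 0.23, limma adjusted p = 0.413). The glypicans Gpc6 and Gpc4, cell surface proteoglycans, changed by -0.29 (adjusted p = 0.385) and 0.08 (adjusted p = 0.679).

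Of 13 tested genes of transduction inside the cell, 9 changes were negative and 4 positive, and the median was -0.05. The kinesin Kif7, which works with Sufu and GLI proteins in the cilium, changed by 0.67 (SE 0.43, adjusted p = 0.526) and was above background on 2 of 4 controls. The kinase Ulk3 changed by -1.25 (SE 0.43, adjusted p = 0.29) with overlapping groups. The kinase Dyrk2 changed by 0.11 (adjusted p = 0.357) with mutant values above control values throughout, as for 4.44% of all tested probe sets. Btrc, part of a ubiquitin ligase that acts on GLI proteins, changed by -0.40 (adjusted p = 0.479).

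Of 9 tested target genes, 6 changes were negative and 3 positive, and the median was -0.17. The lowest adjusted p was that of Foxc2, which also stands on the mesenchyme marker list. Foxc2 had log2 values of 10.79, 11.25, 11.05 and 10.94 in mutants 1 to 4, against 11.72, 11.74, 11.54 and 11.39 in controls 1 to 4, without overlap. It passed without mutant 2, mutant 3, control 1, control 3 or control 4 (adjusted p = 0.0239, 0.0312, 0.0286, 0.0158 and 0.0208). In these fits 8, 39, 263, 20 and 371 of 27022 probe sets passed lower over the whole table, against 5 with all 8 arrays. The cyclin Ccnd1 changed by -0.28 on its brightest probe set (SE 0.10, adjusted p = 0.284), and by -0.07 and 0.54 on dimmer ones (adjusted p = 0.917 and 0.641). Foxf1, a forkhead target of Hedgehog signalling in mesenchyme, changed by -0.48 (SE 0.36, adjusted p = 0.594) on its tested probe set. Osr1, a target in progenitors of the dorsal mesenchyme, was above background on 0 arrays.

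Of 21 tested genes of the primary cilium, 14 changes were positive and 7 negative, and the median was 0.20. Ift57, a component of intraflagellar transport, averaged 9.04 ± 0.05 in mutants and 8.10 ± 0.43 in controls (SD, n = 4 each). Its mutant values lay wholly above its control values, as for 4.44% of all tested probe sets. Its change was 0.82 (SE 0.21, limma adjusted p = 0.204), and its adjusted p was 0.0316 without control 1 and 0.0248 without control 4. Over the whole table, 1417 of 27022 probe sets passed higher without control 1 and 1291 without control 4, against 7 with all 8 arrays. Ift80, of the same transport machinery, changed by -0.30 on its brightest probe set (adjusted p = 0.341). On a dimmer one, above background on 1 control, it changed by 0.40 (adjusted p = 0.759). Tctn2, a protein of the ciliary transition zone, changed by -1.24 (SE 0.39, adjusted p = 0.253). It was above background on 3 mutant and 3 control arrays, and not on mutant 4 or control 2. Tctn2 and the brightest Ift80 probe set had mutant values below control values throughout, as for 3.19% of all tested probe sets. The cilium genes thus included values in both directions, and none passed the threshold.

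**Figure D4:**
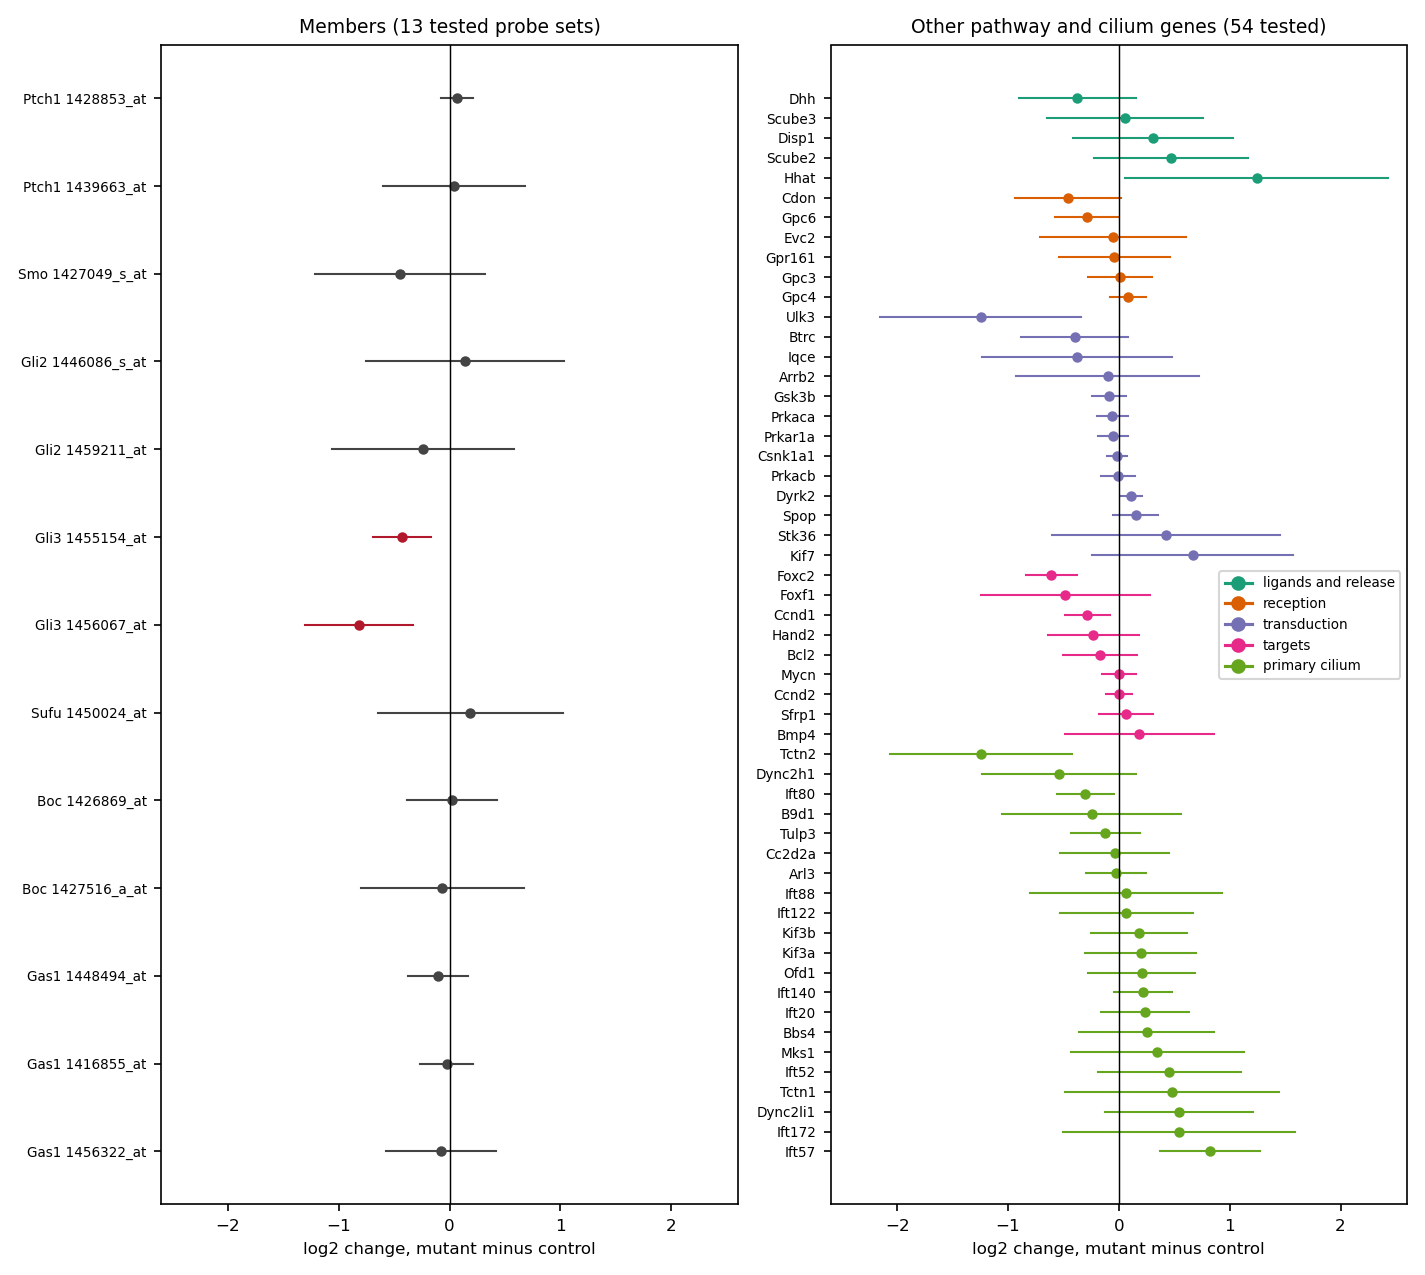
Changes on the log2 scale, mutant minus control, with 95% intervals from limma, for the 13 tested Hedgehog probe sets (left, Gli3 in red) and for the brightest tested probe set of 54 further pathway and cilium genes (right, coloured by role). The Ptch1 1428853_at and both bright Gas1 intervals are narrow around 0, both Gli3 intervals lie below 0, and the Gli2, Smo and Sufu intervals are wide.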

How the data were processed

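Affymetrix mouse arrays of 4 mutant and 4 control pools were compared; per the labels, RNA was amplified by an isothermal NuGen protocol. The deposited intensities were made by the authors with MAS5, per the submitters' processing notes; its version and scaling are not given in the sources used here, but every array has the same mean, 714.971. According to the series description 2 controls were dropped for noise, without naming them, and all 4 control arrays in the table were kept. Depth does not apply to arrays, and their number limits the precision.

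Computed here: log2(signal + 16), quantile normalization, removal of 64 array controls and the dimmest 40%, and limma 3.58.1 in R 4.3.3 with array weights and eBayes with trend and robust, two-sided, adjusted p by Benjamini-Hochberg over 27022 probe sets. SDs are over 4 arrays without weights. Gene symbols came from the platform annotation. Nothing says that pools came from separate litters, so p-values measure the spread between these pools. The alternatives were other scalings, pseudocounts, filters, weights, left-out arrays, a replicate block and an RNA integrity covariate. The 9 genes, the gene lists and the rule for named genes (all Hedgehog probe sets, chosen pathway genes, up to 3 genes of smallest p from each list, and the 3 genes most like Ptch1) were chosen with earlier results of these data known.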

Additional observations from a re-analysis of the deposited data

How the results depend on the processing

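Under all alternatives but median centring Gli3 was lower on both bright probe sets, with adjusted p of 0.0114 to 0.704 for 1455154_at and 0.0232 to 0.703 for 1456067_at. With arrays centred on their medians, the median of all probe sets moved by 1.13; changes are given relative to it, while its p-values, calls and counts refer to unshifted changes. There 17318 probe sets were called higher and 1833 lower, with 9 Hedgehog probe sets and 40 other pathway genes. Both Gli3 probe sets were called higher there, at 1.07 and 0.87 (adjusted p = 0.000415 and 0.0047), or -0.07 and -0.26 relative to all; Ptch1 1428853_at was 0.60 relative to all (called higher, adjusted p = 7.95e-09) and Smo -1.95 (called lower, adjusted p = 0.0253). The Hedgehog median was -0.13, Gas1 0.54 and 0.75 on its bright probe sets, Ptch1 -1.36 on 1439663_at and Gli2 -0.13 on 1446086_s_at. On the authors' scaling, where the median of all probe sets was -0.10, 41 were higher and 22 lower, the Hedgehog median was -0.37, and Gas1 1416855_at was 0.065, Boc 1426869_at -0.062, Ptch1 1439663_at -0.48, Gli2 1446086_s_at -0.56 and Sufu -0.039. All probe sets past the threshold, higher and lower, numbered 22 and 12 with a pseudocount of 64, 14 and 12 with no filter (1 other pathway gene, Foxc2, passing in each, and Ptch1 1439663_at at -0.082), 10 lower without array weights (Ptch1 1439663_at -0.19, Gas1 1448494_at 0.03), and 0 and 0 in plain limma eBayes (1808 higher and 1214 lower at an unadjusted p under 0.05, against 1975 and 1441 in the fit reported).

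Without controls 2 and 3, 1 probe set was higher and 1 lower, with or without weights. Without weights the Hedgehog median was 0.017, and Gas1 was 0.017 (1416855_at) and 0.19 (1456322_at), Boc -0.16 (1426869_at) and 0.12 (1427516_a_at), Smo 0.047 and Sufu -0.38. With weights Gas1 was 0.028 and 0.17, Boc -0.091 and 0.10, Gli2 1446086_s_at -0.12 and Sufu -0.12. Without controls 1 and 4, an alternative chosen after seeing the data, 4200 were higher and 2278 lower, with 2 Hedgehog probe sets (Gli3 1455154_at -0.61 and Gas1 1456322_at -0.86) and 8 other genes, and Ptch1 1439663_at was -0.66, Gas1 1448494_at 0.21 and Gli2 1459211_at 0.044. With the RNA integrity covariate 2 were higher and 2 lower, the Hedgehog median was -0.15, and Gas1 was 0.024 (1416855_at) and 0.16 (1456322_at), Boc -0.15 (1426869_at) and 0.15 (1427516_a_at), Gli2 1446086_s_at -0.29 and Sufu -0.20. With the replicate number as a block, 26 were higher and 34 lower, both Gli3 probe sets (adjusted p = 0.0323) and 1 other gene (Foxc2) passed, and Gas1 1416855_at was 0.009. Same-numbered arrays correlated in their deviations from the group means at -0.12, 0.01, -0.13 and 0.17. With 4 arrays in each group these values cannot exclude a pairing, and the sample titles give only a shared number.

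With each array left out in turn, 3 to 1417 probe sets were higher and 2 to 371 lower, 0 to 2 Hedgehog probe sets and 0 to 2 other genes passed, and the Hedgehog median was -0.13 to 0.005. Ranges were -0.13 to 0.42 and -0.63 to 0.14 for Boc 1426869_at and 1427516_a_at, -0.13 to 0.034, -0.21 to 0.15 and -0.73 to 0.14 for Gas1 1416855_at, 1448494_at and 1456322_at, -0.22 to 1.07 and -0.38 to 0.11 for Gli2 1446086_s_at and 1459211_at, -0.015 to 0.12 and -0.51 to 0.21 for Ptch1 1428853_at and 1439663_at, -0.97 to -0.17 for Smo, and -0.10 to 0.90 for Sufu. The cause of these differences was not tested. The number of Hedgehog probe sets above background on at least 2 arrays of each group was 13 at the 90th and 95th percentiles of the background and 17 at its median.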
